A study of Homo sapiens with 6 samples.

Results

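The genes that encode the protein subunits of the mitochondrial ribosome were examined in KHM-5M, a human thyroid cancer cell line, after silencing of GDF15. They were taken by name from the deposited gene table as the protein-coding genes called MRPL or MRPS followed by a number. This gave 78 genes of the 34738 in the table, of which 49 are named for the large subunit (MRPL) and 29 for the small subunit (MRPS). One set of KHM-5M cultures received a small interfering RNA against GDF15 (siGDF15) and the other served as control (NC), and poly(A) RNA was sequenced from 3 cultures of each. The methods speak of negative control cells and list a control siRNA, whereas the deposited design text speaks of a blank control. If the control was left without siRNA, the effect of transfection and that of losing GDF15 cannot be told apart. Every library came from the same line, no other treatment is named, and 1 figure legend of the study names another thyroid cancer line, TPC-1, for the sequenced cells.

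The mitochondrial ribosome translates the few proteins that mitochondrial DNA encodes, all of them core parts of the respiratory chain and ATP synthase. Its ribosomal RNAs are made inside the organelle, but every one of its proteins is encoded in the nucleus, made in the cytosol and imported. Some of these proteins descend from those of bacterial ribosomes, and the others are found in mitochondria alone. Nuclear respiratory factors such as NRF1 and the GABP complex are known activators of this family of genes.

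The silencing was checked first. GDF15, a stress-induced cytokine, was at 22.4, 19.3 and 23.1 FPKM (the deposited level, scaled to transcript length and to the mapped fragments of the library) in NC replicates 1 to 3 and at 10.8, 10.5 and 10.7 FPKM in siGDF15 replicates 1 to 3. The fall was 0.92 on the log2 scale (-0.92, standard error 0.079, adjusted p = 2.4e-05 by edgeR's quasi-likelihood test with Benjamini-Hochberg adjustment), and the groups did not overlap. Expected counts per library summed to between 51738814 and 68025163, the lowest total being that of siGDF15 replicate 2. Mitochondrially encoded genes held 6.39 to 6.78% of counts in NC and 8.53 to 9.17% in siGDF15. PAX8, a transcription factor of thyroid cells, was at a mean of 59.1 FPKM in NC and 79.4 FPKM in siGDF15, while thyroglobulin (TG) was below 1 FPKM in both groups. Of 5 epithelial markers, KRT18 was highest, at a mean of 92.6 FPKM in NC and 93.9 FPKM in siGDF15, and CDH1, at 0.897 and 1.28 FPKM, was the 1 that was called (log2 fold change 0.61, adjusted p = 0.049 by edgeR). KRT8, KRT19 and EPCAM had log2 fold changes of 0.29, 0.23 and 0.43 and were not called. Of 7 markers of blood, endothelium and fibroblasts, PTPRC, CD3E, PECAM1, VWF and DCN were below 1 FPKM, while CD68 was at 18.3 and 16.9 FPKM and COL1A1 at 5.66 and 5.50 FPKM, neither of them called.

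All 78 genes passed the filter, a mean of at least 1 FPKM over the 6 libraries, and were tested with 11867 genes in all. Of the 78, 18 were lower and 8 were higher in siGDF15 at an adjusted p-value under 0.05, and 52 were not called. Over all tested genes, 61.4% were called, 31.4% lower and 30% higher. The corresponding shares of the mitochondrial ribosomal protein genes were 33.3%, 23.1% and 10.3%. Both shares were below those of all tested genes, and the share called lower was closer to its background than the share called higher. Among the 8554 tested genes with a mean FPKM within the range of the members, 2.67 to 71.0 FPKM, 64.9% were called. The changes were also small, since the median absolute log2 fold change was 0.14 for the members and 0.31 for all tested genes, while the median standard errors were 0.076 and 0.078. For 51 of the 52 genes that were not called, the 95% interval of the fold change lay within a 1.5-fold change in either direction. The median log2 fold change was -0.05 for the members and 0.003 for all tested genes. With total-count scaling and no TMM, 28 members were lower and 7 higher, while the median of all tested genes moved to -0.10 and 39.5% of them were called lower and 22.8% higher.

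A gene was called differentially expressed if its log2 fold change was also at least 1 in either direction, which 4.78% of all tested genes met on the lower side and 3.03% on the higher side. MRPL9 was the member that met it, and none did on the higher side. On log2 CPM (counts scaled by library size and TMM factor), all 3 siGDF15 libraries lay below all 3 NC libraries for 19 members and above them for 13, and the groups overlapped for 46. The same separation was seen for 34.1% of all tested genes on the lower side and 33.8% on the higher side.

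**Figure D1:**
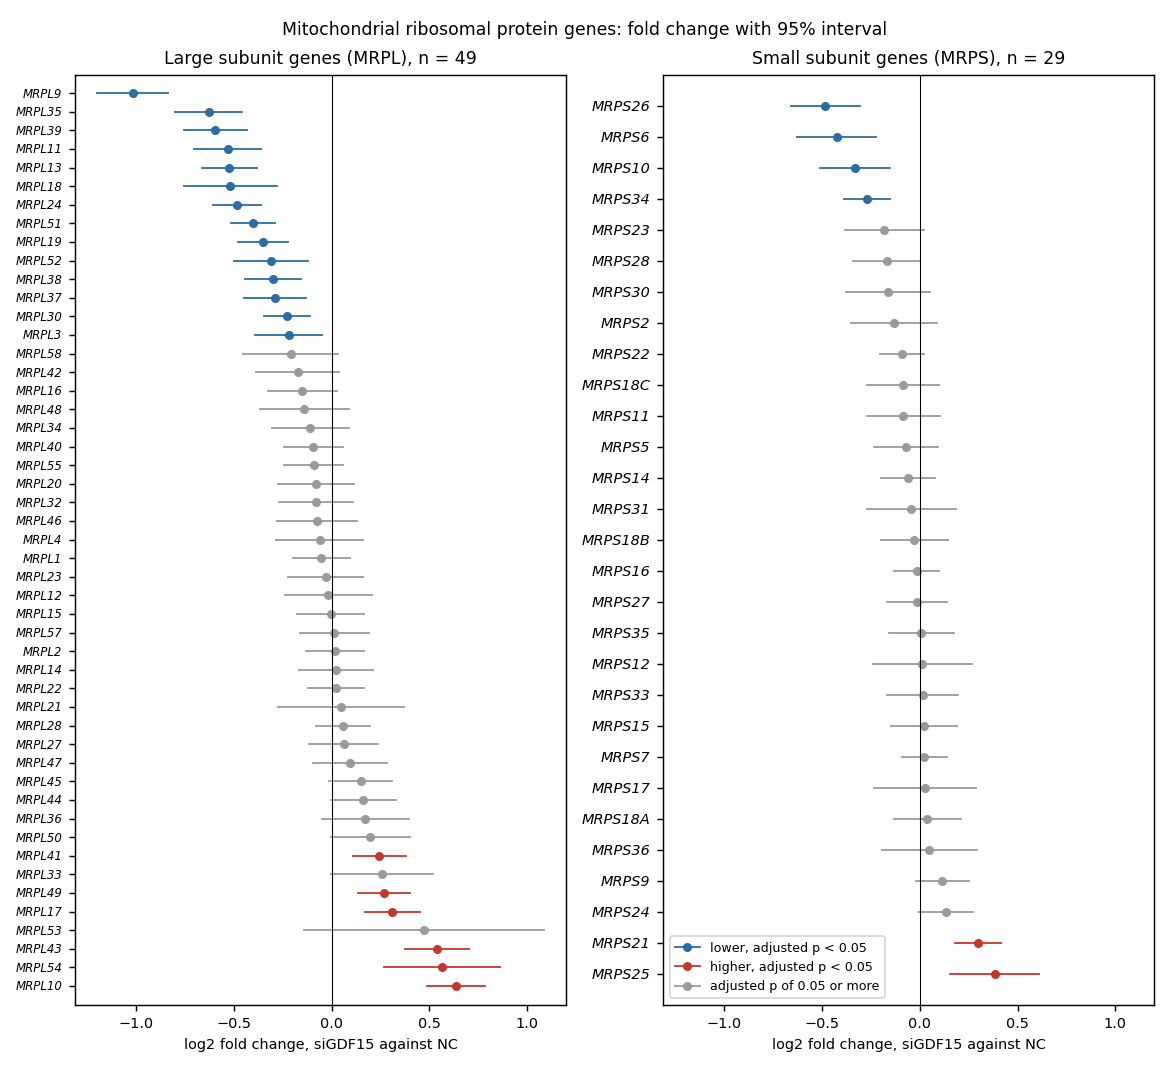
Log2 fold change of each mitochondrial ribosomal protein gene in siGDF15 against NC (points) with its 95% interval (lines), ranked within the 49 large subunit genes (left) and the 29 small subunit genes (right). Blue marks genes called lower, red genes called higher and grey genes not called. The large subunit spans -1.02 (MRPL9) to 0.64 (MRPL10) and the small subunit -0.48 (MRPS26) to 0.38 (MRPS25).

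**Figure D2:**
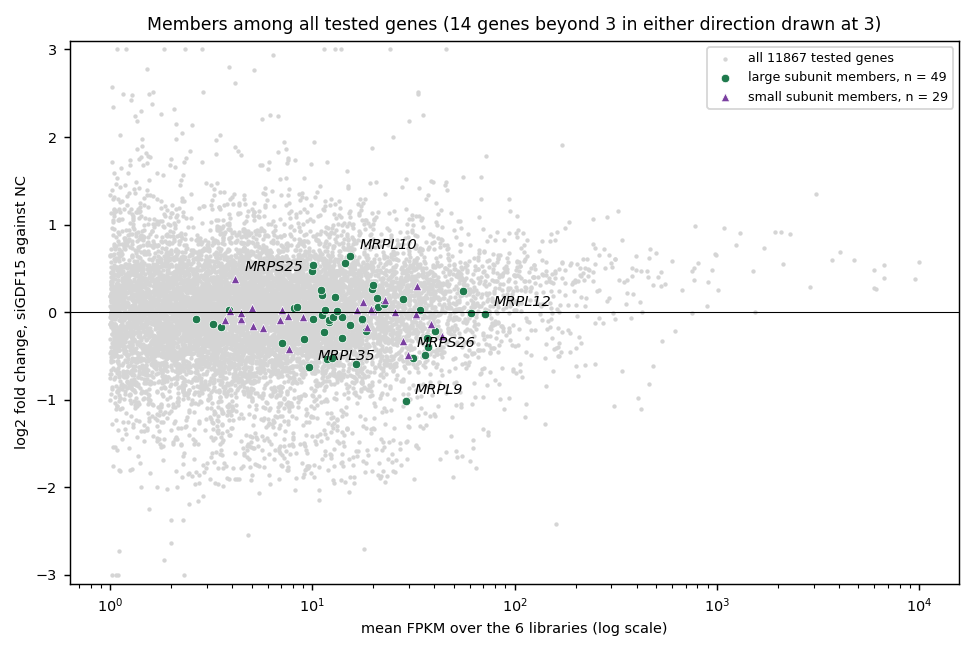
Log2 fold change in siGDF15 against NC (vertical axis) by mean FPKM over the 6 libraries (horizontal axis, log scale) for 11867 tested genes (grey), the 49 large subunit genes (green circles) and the 29 small subunit genes (purple triangles). The members lie in the middle of the cloud, with MRPL9 as the single one past a log2 fold change of 1, and 14 genes beyond 3 are drawn at 3.

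In the large subunit, 14 of 49 genes were lower, 6 were higher and 29 were not called, with a median log2 fold change of -0.06. In the small subunit, 4 of 29 were lower, 2 were higher and 23 were not called, with a median of -0.03. Thus 40.8% of large subunit genes and 20.7% of small subunit genes were called, beside 61.4% of all tested genes. The shares lower and higher were 28.6% and 12.2% in the large subunit and 13.8% and 6.90% in the small one. Those of all tested genes were 31.4% and 30%. Summed FPKM of the large subunit genes was 1.96, 1.96 and 1.99 times that of the small subunit genes in the NC libraries and 1.91, 2.00 and 1.95 times in the siGDF15 libraries. The ratio overlapped between the groups, so a shift of the subunits against each other was not seen in summed FPKM. Summed counts, which are not scaled to transcript length, did not move equally. With the TMM factors the siGDF15 mean was lower by 7.10% for the large subunit and by 2.68% for the small one. No test was made of the difference between the subunits, whose members were chosen by name with earlier results known.

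Among the large subunit genes, MRPL9, a homologue of bacterial ribosomal protein bL9, showed the largest fall. It was at 40.7, 35.6 and 42.6 FPKM in NC and at 18.8, 18.3 and 17.5 FPKM in siGDF15. The groups were far apart and the lowest NC library was well above the highest siGDF15 library. In edgeR's fit the log2 fold change was -1.02, with a standard error of 0.079 and an adjusted p = 1.3e-05, and the level fell by 50.6%. The gene (ENSG00000143436) lies on the minus strand of chromosome 1 of GRCh38, from 151759647 to 151763496. In 3 of the 6 fits with 1 library left out (NC replicate 1, NC replicate 3 or siGDF15 replicate 3), the fall was just short of the threshold of 1, and it ranged from -1.12 to -0.96 over all alternatives.

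MRPL35, another protein with a bacterial homologue, was at 12.1, 11.3 and 12.6 FPKM in NC and at 7.34, 6.59 and 7.69 FPKM in siGDF15. Its log2 fold change was -0.63 (adjusted p = 0.00015 by edgeR), with no overlap between the groups. MRPL39, a mitochondria-specific protein near the exit of the peptide tunnel, was at 21.0, 19.2 and 20.4 FPKM in NC and at 12.9, 12.6 and 11.8 FPKM in siGDF15, a log2 fold change of -0.60 (adjusted p = 0.00014 by edgeR). MRPL11, which forms the base of the stalk where translation factors bind, was at 14.7, 13.3 and 14.9 FPKM in NC and at 8.63, 9.17 and 9.82 FPKM in siGDF15. Its log2 fold change was -0.53 (adjusted p = 0.00039 by edgeR). In each of these genes all 3 siGDF15 libraries were below all 3 NC libraries. The other 10 large subunit genes that fell, with log2 fold changes from -0.52 to -0.22, were MRPL3, MRPL13, MRPL18, MRPL19, MRPL24, MRPL30, MRPL37, MRPL38, MRPL51 and MRPL52.

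The siRNA used here is a short duplex whose antisense strand pairs in full with GDF15 messenger RNA, and bases 2 to 8 of such a strand can also pair with the 3′UTR of other messenger RNAs, as a microRNA seed does. The 7 letters that complement bases 2 to 8 of the antisense strand, CTCATTC, were therefore searched on the sense strand of the 3′UTRs of protein-coding transcripts in GENCODE release 29. They occurred in 6 of the 78 members (7.69%) and in 1567 of 10534 tested genes with a 3′UTR (14.9%). The 2 members with the largest falls, MRPL9 and MRPL35, both held the site, and the other 4 (MRPL22, MRPL42, MRPS14 and MRPS27) were not called, with log2 fold changes of 0.02, -0.17, -0.06 and -0.01. The sites are shown because they set the 2 largest falls beside genes with the same letters that were not called. Each is given with 7 bases on either side, in the transcript annotated as principal, with the matched letters in capitals.
MRPL9: tacttgcCTCATTCtcatcat
MRPL35: cagcatgCTCATTCatgaaac
MRPL22: cttccctCTCATTCatacacg
MRPL42, site nearer to the stop codon: gatagccCTCATTCctgattg
MRPL42, site farther from the stop codon: agagggtCTCATTCattttat
MRPS14: caaagttCTCATTCagtaact
MRPS27: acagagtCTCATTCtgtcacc

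The MRPL9 site lies on the minus strand at chr1:151759701-151759721 of GRCh38, and its first matched base is base 336 of the 407 bases that follow the stop codon. The MRPL35 site lies on the plus strand at chr2:86211593-86211613, with its first matched base at base 932 of 3126. The capitals are followed by an A, which would face the first base of the siRNA, in MRPL35, MRPL22, MRPS14 and the farther site of MRPL42, but not in MRPL9 or MRPS27. Of the 2 protein-coding transcripts of MRPL9 with a 3′UTR 1 held the site, and of the 4 of MRPL35 also 1. Of the 72 members without the site, 16 were called lower. Among all tested genes with a 3′UTR, the median log2 fold change was -0.12 with the site and 0.01 without it, and 42.1% and 31.6% were called lower. Here and in the shares holding the site, a gene counted if any of its protein-coding transcripts held the letters. Genes were not matched for the length of the 3′UTR, so these comparisons cannot separate the site from that length. Whether the siRNA acted on MRPL9 or MRPL35 was not tested.

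Of the 6 large subunit genes that rose, MRPL10 rose most. It encodes the protein that anchors the stalk, and was at 12.1, 12.4 and 13.2 FPKM in NC and at 17.6, 18.8 and 18.1 FPKM in siGDF15. In edgeR's fit the log2 fold change was 0.64, with a standard error of 0.064 and an adjusted p = 5.5e-05, a rise of 55.5%, and the groups were well separated. MRPL54, a mitochondria-specific protein of the stalk region, was at 11.8, 10.6 and 14.2 FPKM in NC and at 15.0, 18.5 and 17.0 FPKM in siGDF15. Its log2 fold change was 0.57 (adjusted p = 0.0051 by edgeR), and NC replicate 3 came close to the lowest siGDF15 library without reaching it. MRPL43, also mitochondria-specific, was at 8.45, 8.30 and 8.96 FPKM in NC and at 10.8, 12 and 12 FPKM in siGDF15, a log2 fold change of 0.54 (adjusted p = 0.00026 by edgeR). MRPL17, a homologue of a bacterial protein at the exit tunnel, was at 18.3, 18.5 and 18.6 FPKM in NC and at 19.8, 21.4 and 22.6 FPKM in siGDF15, a log2 fold change of 0.31 (adjusted p = 0.0026 by edgeR). The 3 NC libraries of MRPL17 were almost equal and all lay below the siGDF15 libraries. MRPL49 and MRPL41 completed the 6, at 0.27 and 0.25. MRPL43 and MRPL49 overlap SEMA4G and SYVN1 on the opposite strand, which also rose. TWNK, which overlaps MRPL43 on the opposite strand too, was at a higher mean (6.52 FPKM) than SEMA4G (1.27 FPKM). TWNK was not called (log2 fold change 0.16).

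In the small subunit the falls were smaller. MRPS26, a mitochondria-specific protein, was at 38.0, 32.8 and 35.7 FPKM in NC and at 22.3, 23.4 and 25.0 FPKM in siGDF15, a log2 fold change of -0.48 with a standard error of 0.077 (adjusted p = 0.00075 by edgeR). MRPS6, a homologue of bacterial bS6, was at 9.50, 7.96 and 9.77 FPKM in NC and at 6.22, 5.99 and 6.63 FPKM in siGDF15, a log2 fold change of -0.43 (adjusted p = 0.0033 by edgeR). MRPS6 overlaps SLC5A3 on the same strand, whose log2 fold change was -0.45, so reads could be split between them. In both small subunit genes NC replicate 2 was the lowest NC library and still lay above every siGDF15 library. MRPS10, a protein of the subunit's head, was at 32.9, 28.9 and 34.8 FPKM in NC and at 25.2, 22.5 and 23.7 FPKM in siGDF15, a log2 fold change of -0.33 (adjusted p = 0.0061 by edgeR). MRPS34, a mitochondria-specific protein and the most abundant small subunit messenger, was at 48.7, 49.0 and 50.5 FPKM in NC and at 38.4, 36.9 and 38.9 FPKM in siGDF15, a log2 fold change of -0.27 (adjusted p = 0.0020 by edgeR). Neither gene overlapped between the groups.

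Among the small subunit genes, 2 rose. MRPS25, mitochondria-specific and one of the least abundant members, was at 3.64, 3.65 and 3.98 FPKM in NC and at 5.39, 4.12 and 4.18 FPKM in siGDF15, a log2 fold change of 0.38 with a standard error of 0.099 (adjusted p = 0.0097 by edgeR). Replicate 1 stood above the other siGDF15 libraries, and without it the log2 fold change was 0.25 (adjusted p = 0.014 by edgeR). MRPS25 overlaps NR2C2 on the opposite strand, which fell by 0.86 on the log2 scale. The rise of MRPS25 was not called by limma on log2(FPKM + 1) or log2(FPKM + 0.1) or without the filter. MRPS21, a homologue of bacterial bS21, was at 30.8, 29.9 and 30.9 FPKM in NC and at 34.4, 35.3 and 34.9 FPKM in siGDF15, a log2 fold change of 0.30 (adjusted p = 0.0012 by edgeR). Both groups of MRPS21 were tight and did not overlap.

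**Figure D3:**
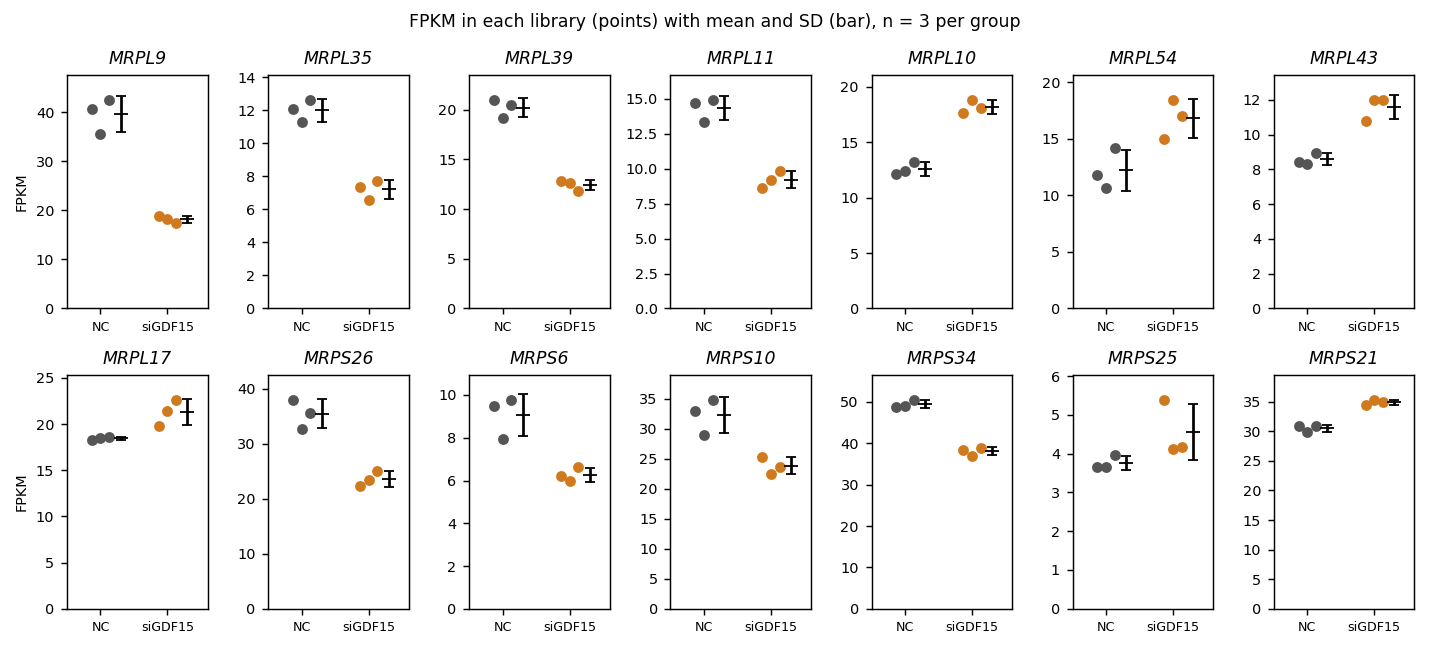
FPKM in each library (points) with the mean and SD (bars, n = 3 per group) for the large and small subunit genes with the largest called falls and rises, NC in grey and siGDF15 in orange, each panel starting at 0. In every panel the 3 siGDF15 libraries lie on one side of the 3 NC libraries, and MRPL9 shows the widest gap.

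Of the 10 most abundant members, 5 were lower, 1 was higher and 4 were not called. Over all tested genes 31.4% were lower and 30% higher, and 10 genes are too few to be set against these shares. MRPL12, which forms the mobile arm of the stalk and recruits translation factors, was at 74.0, 63.7 and 84.2 FPKM in NC and at 65.3, 69.8 and 69.0 FPKM in siGDF15. The NC libraries enclosed all siGDF15 libraries, and the log2 fold change was -0.02 (95% interval -0.24 to 0.21). MRPL15, a homologue of bacterial uL15, was at 64.8, 56.6 and 68.8 FPKM in NC and at 57.2, 59.0 and 60.0 FPKM in siGDF15, a log2 fold change of -0.01 (95% interval -0.18 to 0.17). MRPL41, a mitochondria-specific protein, was at 54.0, 51.7 and 53.4 FPKM in NC and at 56.5, 60.3 and 58.6 FPKM in siGDF15, and rose by 0.25 on the log2 scale (adjusted p = 0.0068 by edgeR). That rise was not called with total-count scaling and no TMM (adjusted p = 0.059). MRPS2, a homologue of bacterial uS2, was at 40.4, 36.3 and 48.2 FPKM in NC and at 34.7, 36.0 and 35.3 FPKM in siGDF15, with a log2 fold change of -0.13 (95% interval -0.35 to 0.09).

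The least abundant large subunit gene, MRPL46, was at 2.96, 2.56 and 3.00 FPKM in NC and at 2.38, 2.45 and 2.68 FPKM in siGDF15. The least abundant small subunit gene, MRPS22, was at 4.09, 3.90 and 3.91 FPKM in NC and at 3.60, 3.36 and 3.42 FPKM in siGDF15. Neither was called, with log2 fold changes of -0.08 and -0.09. The fold changes nearest to 0 were those of MRPL15 and MRPL57 (0.01, 95% interval -0.16 to 0.19) in the large subunit and of MRPS35 (0.01, -0.16 to 0.17) and MRPS12 (0.01, -0.24 to 0.27) in the small subunit. MRPS12 is a homologue of the bacterial protein at the decoding centre. The mean level differed 26.6-fold between the highest and the lowest member on the FPKM scale, and the 10 highest members held 32.1% of the summed FPKM. MRPL53, named after its values were seen, was the exception among the genes not called. It was at 7.91, 12.4 and 5.75 FPKM in NC and at 12.4, 12.4 and 8.79 FPKM in siGDF15, and its log2 fold change of 0.47 had a 95% interval of -0.14 to 1.09. It overlaps CCDC142 on the same strand, so reads could be split between them.

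The genes were grouped by where their proteins sit, and calls in both directions were found in the stalk and around the exit tunnel. Of the 5 members listed for the stalk and its base, MRPL10 and MRPL54 rose, MRPL11 fell, and MRPL12 and MRPL53 were not called. Of the 6 members listed for the central protuberance, a ridge at the top of the large subunit, 3 fell (MRPL18, MRPL38 and MRPL52) and none rose. All 6 listed fold changes were below 0, with a median of -0.22, but the list is not the whole structure. Of the 9 members listed around the exit tunnel, MRPL24 and MRPL39 fell and MRPL17 rose. MRPL19 was listed there too and fell, but its protein is not placed at the tunnel exit. Of the 8 members listed for the small subunit's head, MRPS10 fell and the other 7 were not called. These counts stand beside background shares of 31.4% lower and 30% higher, and the groups are too small to be set against them. The lists hold only members and need not be complete. Ribosomal proteins outside the naming rule are not in them, among them DAP3 of the small subunit, which was called higher (0.32).

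The genes were also grouped by origin, beside background shares of 31.4% lower and 30% higher. Of the 30 large subunit genes with a bacterial homologue 9 were lower and 2 higher, and of the 19 mitochondria-specific ones 5 were lower and 4 higher, which is 30% and 26.3% lower, near the background, with medians of -0.06 and -0.08. In the small subunit 2 of 16 genes with a bacterial homologue were lower and 1 higher, and 2 of 10 mitochondria-specific genes were lower and 1 higher, with medians of -0.04 for both. MRPS18A and MRPS30, named for the small subunit but located in the large one, and MRPS36, now known as a part of the oxoglutarate dehydrogenase complex, were not called. Of 5 ribosomal proteins outside the naming rule, DAP3, a GTP-binding protein of the small subunit, rose from 32.7, 29.4 and 33.2 FPKM to 34.7, 37.5 and 38.1 FPKM (log2 fold change 0.32, adjusted p = 0.0032 by edgeR). PTCD3, AURKAIP1, CHCHD1 and GADD45GIP1 were not called.

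The summed level of the family depended on how the libraries were scaled. Summed FPKM of the 78 genes was 1518, 1400 and 1598 in NC (1505 ± 99.6, SD, n = 3) and 1305, 1335 and 1335 in siGDF15 (1325 ± 17.5, SD, n = 3), so that the siGDF15 mean was lower by 12% and the groups did not overlap. FPKM is relative to all mapped fragments. Mitochondrially encoded genes held a mean of 6.56% of counts in NC and 8.75% in siGDF15. The summed FPKM of cytosolic ribosomal protein genes was 15240 in NC and 18919 in siGDF15 on average. Whether these differences account for the lower sum of the members was not tested. With the TMM factors, which were 1.03 to 1.04 in NC and 0.958 to 0.972 in siGDF15, the summed counts were 3761, 3447 and 3990 CPM in NC and 3475, 3582 and 3540 CPM in siGDF15. The siGDF15 mean was then lower by 5.36%, and NC replicate 2 lay below all 3 siGDF15 libraries. The large subunit sum was lower by 7.10% and the small subunit sum by 2.68% on this scale, both with overlap.

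**Figure D4:**
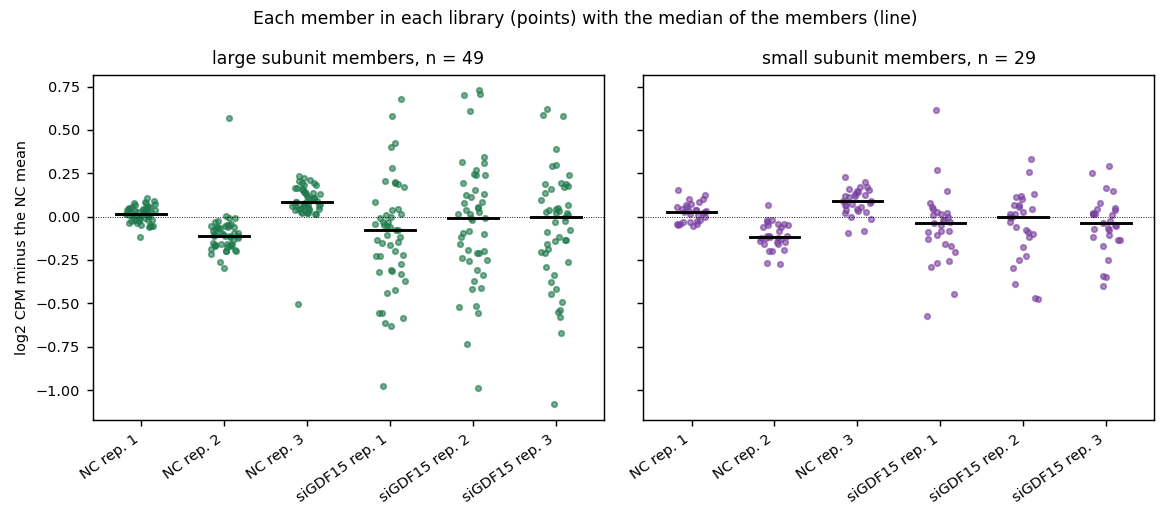
Log2 CPM (scaled with TMM) of each member in each library minus its NC mean (points), with the median over the members (lines), for 49 large subunit genes (left) and 29 small subunit genes (right). The median of the large subunit genes is -0.11 in NC replicate 2 and 0.08 in NC replicate 3, while the siGDF15 libraries lie between -0.08 and -0.003. Since the NC mean was subtracted, the siGDF15 points also carry each gene's difference between the groups. Their scatter is therefore not the spread of replicates.

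The NC libraries themselves differed in this family. NC replicate 2 was the lowest NC library for 69 of the 78 genes (88.5%) and NC replicate 3 the highest for 62 (79.5%), against 38.2% and 38.7% of all tested genes. The median coefficient of variation of a member's FPKM was 7.83% in NC and 3.80% in siGDF15, and it was 6.82% and 4.84% over all tested genes. Without NC replicate 2, 25 members were called lower and 9 higher. These are 32.1% and 11.5% of the members, beside 31.7% and 30.9% of all tested genes in the same fit. Without NC replicate 3, 17 were called lower and 13 higher (21.8% and 16.7%), beside 31.4% and 30.4% of all tested genes. The split of calls therefore moved with 1 library, and the 4 other fits with a library left out gave 17 lower and 8 higher (21.8% and 10.3%). In those fits 26.8 to 28.0% of all tested genes were called lower and 25.4 to 27.0% higher.

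For comparison, 2 other families were taken, the cytosolic ribosomal proteins and the nuclear-encoded subunits of the respiratory chain. Of 85 cytosolic ribosomal protein genes 75 were higher and 2 lower, with a median log2 fold change of 0.42. Of 82 respiratory chain genes 44 were higher and 8 lower, with a median of 0.18. The shares higher and lower were 88.2% and 2.35% in the first family and 53.7% and 9.76% in the second. Those of all tested genes were 30% and 31.4%. In total 63.4% of the respiratory chain genes were called, near the 61.4% of all tested genes. All 13 protein genes of mitochondrial DNA were higher, with a median of 0.54, as were the ribosomal RNAs MT-RNR1 (0.96) and MT-RNR2 (0.60), whose levels in poly(A) RNA need not follow those in the cell. Summed FPKM of the mitochondrial ribosomal protein genes was 9.82, 9.55 and 10.2% of that of the cytosolic ones in NC and 7.12, 6.97 and 6.92% in siGDF15. This ratio is taken within a library, did not overlap between the groups, and is free of the choice of scaling. The difference between the families was not tested.

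**Figure D5:**
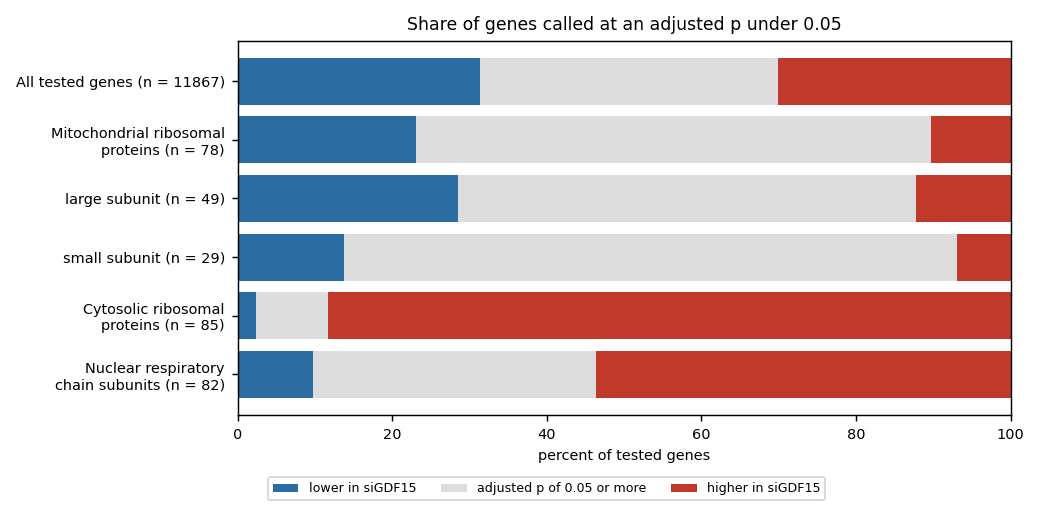
Percent of tested genes called lower (blue, from the left) and higher (red, from the right) in siGDF15 at an adjusted p-value under 0.05, for all 11867 tested genes, the 78 mitochondrial ribosomal protein genes and each subunit, 85 cytosolic ribosomal protein genes and 82 nuclear respiratory chain genes. Of the mitochondrial ribosomal protein genes 33.3% were called, against 61.4% of all tested genes, and 88.2% of the cytosolic ribosomal protein genes were called higher.

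Genes that serve the mitochondrial ribosome were described from lists, again beside background shares of 31.4% lower and 30% higher. Of 24 assembly factors 8 were lower (33.3%) and 5 higher (20.8%), with a median log2 fold change of -0.10. MTERF3, which acts in mitochondrial transcription and in the assembly of the large subunit, fell from 24.6, 19.5 and 24.8 FPKM to 10.8, 11.5 and 10.4 FPKM (log2 fold change -0.97, adjusted p = 7.8e-05 by edgeR), and YBEY, an endoribonuclease needed for the small subunit, rose by 0.52 (adjusted p = 0.0099 by edgeR). Of 16 translation factors 3 were lower (18.8%) and 5 higher (31.2%). GUF1, a translational GTPase, fell by 0.38 on the log2 scale, and OXA1L, which inserts new proteins into the inner membrane, rose by 0.46. Of 9 genes of mitochondrial transcription and DNA maintenance 3 were lower (33.3%) and 1 higher (11.1%). TFAM, which packages mitochondrial DNA and starts its transcription, fell from 17.0, 15.4 and 16.8 FPKM to 10.2, 9.98 and 9.84 FPKM (log2 fold change -0.61, adjusted p = 3.4e-05 by edgeR), and TFB2M, a transcription factor that opens the mitochondrial promoter, rose by 0.26.

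Of 10 nuclear regulators of mitochondrial genes 8 were tested, and PPARGC1A and PPARGC1B were left out at below 1 FPKM. NRF1 was at 4.36, 4.12 and 4.70 FPKM in NC and at 3.08, 2.50 and 3.09 FPKM in siGDF15, a log2 fold change of -0.50 (adjusted p = 0.0027 by edgeR) with no overlap. GABPB1, a subunit of the GABP complex, was at 5.10, 4.99 and 5.52 FPKM in NC and at 4.11, 3.85 and 3.53 FPKM in siGDF15, a log2 fold change of -0.34 (adjusted p = 0.0051 by edgeR). GABPA, its DNA-binding partner, had a log2 fold change of 0.12 and was not called. PPRC1, a coactivator, was called higher at 0.30 (adjusted p = 0.040 by edgeR), although its libraries overlapped.

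The promoters of the members were searched for the binding motifs of such regulators. RefSeq promoters (GRCh38.p14) were found for 69 of the 78 genes, and the 250 bases before the annotated start were searched on both strands. The core of the ETS family, to which GABPA belongs, is CCGGAAG. It occurred in 23 of 69 member promoters (33.3%), in 17.2% of 8820 promoters of tested genes and in 8.52% of 35116 promoters in all. The NRF1 core, CGCANGCG, occurred in 18.8% of member promoters, 18% of those of tested genes and 8.69% of all. The YY1 core, AAGATGGC, occurred in 7.25, 1.88 and 1.36%, and the MYC E-box, CACGTG, in 8.70, 9.26 and 6.34%. No 2 different motifs overlapped in a member promoter, and 37 of the 69 held at least 1.

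The ETS core did not divide the members by direction. It was found in 7 of 16 promoters of genes called lower, in 3 of 7 of genes called higher and in 13 of 46 of genes not called. Of the promoters of genes called lower 2 held the NRF1 core, of those called higher 1 and of those not called 10. The 150 bases before the start are shown for the largest called fall and the largest called rise with an entry in each subunit, since they show the ETS core, in capitals, in a gene of either direction. The capitals read the core on the opposite strand.
MRPL9: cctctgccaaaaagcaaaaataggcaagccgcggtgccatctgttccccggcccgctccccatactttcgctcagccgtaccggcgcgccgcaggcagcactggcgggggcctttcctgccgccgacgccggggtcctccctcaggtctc
MRPS26: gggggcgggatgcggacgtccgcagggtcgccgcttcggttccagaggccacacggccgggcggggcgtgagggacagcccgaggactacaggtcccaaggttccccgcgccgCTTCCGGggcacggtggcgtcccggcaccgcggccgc
MRPL54: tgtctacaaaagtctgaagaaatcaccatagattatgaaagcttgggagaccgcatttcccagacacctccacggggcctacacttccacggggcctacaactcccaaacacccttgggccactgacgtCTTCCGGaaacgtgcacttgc
MRPS25: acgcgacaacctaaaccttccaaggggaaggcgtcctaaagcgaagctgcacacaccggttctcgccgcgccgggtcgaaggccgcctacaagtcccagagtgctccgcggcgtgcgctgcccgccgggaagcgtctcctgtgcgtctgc

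MRPL9 (minus strand, chr1:151763497-151763646) and MRPS25 (minus strand, chr3:15065316-15065465) held none of the 4 motifs in these bases. In MRPS26 (plus strand, chr20:3045902-3046051) the ETS core lay 37 to 31 bases before the start, and in MRPL54 (plus strand, chr19:3762532-3762681) 21 to 15 bases before it. MRPS26 fell by 0.48 and MRPL54 rose by 0.57 on the log2 scale. A match to these letters is a description of the sequence, and binding was not measured.

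The members are spread over 21 chromosomes, with at most 8 on one, and many share a promoter region with another gene. A gene on the other strand that was tested and started within 1000 bases upstream or 500 bases downstream was found for 19 members, in 20 pairs. Both genes were called in 4 of these pairs, and in all 4 they moved in the same direction. Over all tested genes 61.4% were called, and how often such pairs move together was not worked out for them. MRPL13 (-0.52) faced MTBP (-1.84), MRPL51 (-0.40) faced NCAPD2 (-1.31), MRPL18 (-0.52) faced TCP1 (-0.43), and MRPL49 (0.27) faced FAU (0.29), which encodes a cytosolic ribosomal protein. In other pairs the partner moved alone. MRPL27 and MRPL57 faced EME1 and SKA3, which fell by 1.90 and 1.88 on the log2 scale, while MRPL27 and MRPL57 were not called at 0.06 and 0.01. MRPS11 and MRPL46 faced each other 64 bases apart, and neither was called. These pairs were named after their values were seen, and MRPL13 and MRPL51 overlap their partners, so that reads could not be told apart if the counting ignored strand.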

How the data were processed

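Poly(A) RNA of 3 NC and 3 siGDF15 cultures was sequenced as paired ends with a strand-marking (dUTP) kit. Per the labels, reads were processed with fastp, HISAT2, StringTie and edgeR on GRCh38, and versions, annotation release and the strand setting of the counting are not given in the sources used here. The authors deposited FPKM values, scaled to transcript length and mapped fragments, and expected counts worked out from coverage and not normalized. Among counts from 1 to 20, 15.6% were exactly 4, so about 4 counts were taken as 1 read pair. Each member had at least 297 counts in every library. Columns with the authors' own comparison (fold changes and p-values) were not used.

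Differences were tested with edgeR 4.0.16 in R 4.3.3 (glmQLFit and glmQLFTest, two-sided, TMM, Benjamini-Hochberg over the 11867 genes whose FPKM averaged 1 or more). Standard errors came from the F statistic. Values are FPKM unless CPM is named. The steps were tested on simulated counts. Positions were compared with GENCODE release 29, where all 78 genes were on the same chromosome and 19 had equal ends. Figures used Python 3.11.15 and matplotlib 3.10.9. The members and lists were chosen with earlier results of these data known. Genes were named by rule: members past both thresholds, the 4 largest called falls and rises with separated libraries in each subunit, the 3 most and 1 least abundant, the 2 nearest to 0, and the largest called fall and rise of each list. The replicates are called biological in the methods. The numbers do not pair them (correlations of same-numbered deviations from -0.075 to 0.046). Alternatives were a total-count scaling, median-of-ratios, removal of mitochondrially encoded genes, DESeq2 1.42.0, limma 3.58.1 with pseudocounts of 1 and 0.1, no filter, at least 5 FPKM, counts divided by 4, a replicate block and each library left out.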

Additional observations from a re-analysis of the deposited data

How the results depend on the processing

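Of 365 values of named members under 16 alternatives, 331 kept their direction and their side of the threshold. All 18 genes called lower remained called lower in every alternative with 6 libraries, and at least 17 of them with 1 library left out. The count called lower was 28 with the total count without TMM, 30 with limma on log2(FPKM + 1) and 29 with limma on log2(FPKM + 0.1), where the median of all tested genes also moved to -0.10, -0.08 and -0.10. Of all tested genes 39.5, 39.2 and 39.2% were called lower in these 3 settings. With 1 library left out the count of members called lower was 17 to 25, and the count called higher was 8 to 13. The shares of all tested genes were then 26.8 to 31.7% lower and 25.4 to 30.9% higher. The median of the large subunit was -0.16 with the total count and -0.16 with limma and a pseudocount of 0.1, and that of the small subunit was -0.13 with the total count, -0.13 with limma and a pseudocount of 1 and -0.13 with 0.1. With 1 library left out these medians were -0.12 to -0.01 and -0.095 to -0.00088. MRPL41 was not called with the total count (0.14), nor was MRPS25 with limma (0.22 and 0.26) or without the filter (0.33). MRPS22 was called with the total count (-0.19) and with limma (-0.16 and -0.19), and MRPS2 was called without NC replicate 2 (-0.23).

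The sign of 5 members near 0 changed. In the order total count, limma with 1, limma with 0.1, no filter and at least 5 FPKM, the log2 fold change was -0.088, -0.080, -0.086, -0.040 and -0.0032 for MRPL57, -0.090, -0.078, -0.081, -0.043 and -0.0049 for MRPS12, and -0.095, -0.091, -0.094, -0.048 and -0.011 for MRPS35. With 1 library left out it ranged from -0.12 to 0.093 for MRPL12, -0.085 to 0.063 for MRPL15, -0.063 to 0.068 for MRPL57, -0.11 to 0.099 for MRPS12 and -0.049 to 0.081 for MRPS35. None of these was called in any alternative, and the causes were not tested beyond the shift of all genes given above.

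Same-numbered libraries did not deviate together (correlations from -0.075 to 0.046), and the replicate block gave 18 members lower and 9 higher. These are 23.1% and 11.5% of the members, beside 29.6% and 28.6% of all tested genes in that fit. With 3 libraries per group and standard errors from 0.049 to 0.27, the smallest change that was called was -0.22.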

Other observations

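The members lie in gene-dense places, and 24 of the 78 overlap another gene with a mean of at least 1 FPKM. In 4 of them the other gene is on the same strand, and in 21 a gene on the opposite strand overlaps. In the 29 overlapping pairs, both genes were called in 8, in the same direction in 7 and in opposite directions in 1. The other gene alone was called in 11, the member alone in 3 (among them MRPL43 with TWNK) and neither in 7. Of all tested genes 61.4% were called, and the direction of overlapping pairs was not worked out beyond the members. The pairs called in the same direction were MRPL13 with MTBP, MRPL51 with NCAPD2, MRPS6 with SLC5A3, MRPL43 (0.54) with SEMA4G (1.18), MRPL37 (-0.29) with SSBP3 (-0.36), MRPL19 (-0.35) with GCFC2 (-0.26) and MRPL49 (0.27) with SYVN1 (0.21). CACYBP, which overlaps MRPS14, fell by 0.97 on the log2 scale, ACTL6A, which overlaps MRPL47, fell by 0.74, and COPB2, which overlaps MRPS22, rose by 0.52, whereas MRPS14, MRPL47 and MRPS22 were not called. In the 1 pair called in opposite directions, NR2C2 fell by 0.86 on the log2 scale and MRPS25 rose. PGAP6, on the same strand as MRPL28, rose by 0.48, and MRPL28 was not called. These genes were named after their values were seen.

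Processed copies of the members are common in the genome. The table lists 26 genes named as pseudogenes of members, and none reached a mean of 1 FPKM, the highest being at 0.971 FPKM. How reads shared with such copies were assigned is not given in the sources used here.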
